A study of Mus musculus with 23 samples.

Results

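The intercalated disc is the end-to-end contact of heart muscle cells. Adherens junctions there anchor the contractile filaments through N-cadherin (Cdh2), plakoglobin (Jup) and alpha-T-catenin (Ctnna3). Desmosomes anchor intermediate filaments through desmoglein 2 (Dsg2), plakophilin 2 (Pkp2), plakoglobin and desmoplakin (Dsp), and gap junctions of connexin-43 (Gja1), with the scaffold ZO-1 (Tjp1) at their edge, pass current from cell to cell. Fibroblasts and astrocytes also make several of these proteins, and connexin-43 is the main gap junction protein of astrocytes. These 8 genes were taken by symbol, and every probe set annotated to them alone was used: 6 for Gja1, 2 for Cdh2, 1 for Jup, 3 for Dsp, 6 for Dsg2, 4 for Pkp2, 2 for Ctnna3 and 1 for Tjp1. They make 25 of the 45037 probe sets and 8 of the 18193 genes measured.

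Expression was measured in 23 single mouse cells, 1 array per cell. Cultured cells grew in medium with serum, and each was drawn into a glass micropipette for linear amplification of its RNA. The study asked whether poly-A RNA of cardiomyocytes, given to another cell type with a lipid reagent, moves the recipient towards a cardiomyocyte. The fibroTIPeR group held 5 fibroblasts and the astroTIPeR group 6 astrocytes, both given cardiomyocyte RNA. The fibroControl group held 3 fibroblasts given fibroblast RNA, and the astroControl group 2 mock-transfected astrocytes, so the controls of the recipient types differ in kind. Fibroblasts (3 cells) and cardiomyocytes (4 cells) without transfection were the reference types. The sources used here give no strain, sex or age. The labels name no culture or animal either, so a p-value here speaks of the spread from cell to cell and no further. RNA taken up and RNA made by the recipient cannot be told apart on these arrays.

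Levels are log2 values after quantile normalization, on which 1 unit is a doubling, and levels of different probe sets are not compared with each other. The mean level of 10 cardiomyocyte markers was 8.19 to 9.90 in the cardiomyocytes and 4.80 to 6.39 in all other cells, while that of 10 fibroblast markers was 7.89 to 10.13 in the fibroblast, fibroControl and fibroTIPeR cells, 6.71 to 8.21 in astroTIPeR, 6.90 to 7.92 in astroControl and 5.42 to 7.76 in cardiomyocyte cells, so these overlapped in part. Astrocyte markers did not set the astrocyte groups apart from the others. The mean level of 9 of them was 6.12 to 7.42 in astroTIPeR, 5.85 to 6.08 in astroControl and 6.63 to 7.22 in cardiomyocyte cells. In fibroTIPeR cells it was 5.24 to 6.49, in fibroControl cells 5.82 to 5.95 and in fibroblasts 5.84 to 6.85. Of the 9, 7 were higher and 2 lower in astroTIPeR than in astroControl cells, none past the threshold used below. Gfap averaged 4.69 ± 0.959 (SD, n = 6) in astroTIPeR and 5.32 ± 0.581 (n = 2) in astroControl cells, and 6.13 ± 1.26 (n = 4) in cardiomyocytes. Aqp4 was 5.70 ± 1.14 in astroTIPeR, 6.21 ± 0.774 in astroControl and 6.82 ± 0.670 (n = 3) in fibroblast cells. The 6 macrophage markers averaged 6.88 to 8.45 in astroTIPeR and 6.39 to 8.43 in astroControl cells, against 5.48 to 7.18 in the other groups; their part in the astrocyte results was not tested. Probes for 18S ribosomal RNA read 11.23 to 12.08 in fibroControl cells and 11.03 to 13.48 in fibroTIPeR cells 1 to 3. They read 7.80 and 7.88 in fibroTIPeR cells 4 and 5 and 6.94 to 8.24 in fibroblasts and cardiomyocytes. What sets this reading was not tested. The deposited values of the 8 astrocyte arrays had lower medians (4.28 to 4.56) than those of the other 15 arrays (5.05 to 5.58). These are called 2 array sets here from the medians alone, as the sample titles name no such set. In any comparison of astrocytes with cardiomyocytes this difference between arrays and the cell type cannot be told apart.

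Desmoplakin was the junction gene that set cardiomyocytes apart, and this was seen in 1 of its 3 probe sets, 1435493_at. Its level was higher in cardiomyocytes than in fibroblasts, fibroTIPeR, fibroControl and astroTIPeR cells, and in no cell given cardiomyocyte RNA did it reach the cardiomyocyte range. The remaining call among the 25 probe sets was Dsg2 1439476_at, which was lower in fibroControl cells than in untreated fibroblasts. No junction probe set passed the test between cells given cardiomyocyte RNA and their controls, in fibroblasts or in astrocytes.

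Counts past the threshold (adjusted p under 0.05 with limma, Benjamini-Hochberg over all probe sets) are read against the share of all 45037 probe sets past it. Between cardiomyocytes and fibroblasts 1 of 25 passed, against 0.127% of all probe sets, and 4 of 25 had an unadjusted p under 0.05, against 9.23%. FibroTIPeR against fibroControl gave 0 of 25, against 0.00222%, with 7 of 25 at an unadjusted p under 0.05 against 6.40% of all. FibroTIPeR against fibroblast gave 0 of 25, against 0.00444%, with 1 of 25 at an unadjusted p under 0.05 against 10.5%. FibroControl against fibroblast gave 1 of 25, against 1.32%, with 8 of 25 at an unadjusted p under 0.05 against 16.7%. Set against cardiomyocytes, 1 of 25 passed in each case: fibroTIPeR with a background of 0.560%, fibroControl with 2.48% and astroTIPeR with 1.87%. The counts at an unadjusted p under 0.05 were 4 (13.0%), 10 (17.3%) and 8 (16.1%) in that order. AstroTIPeR against astroControl gave 0 of 25, against 0.127%, with 1 of 25 at an unadjusted p under 0.05 against 9.81%. These comparisons share cells, so they are not independent of each other, and the cardiomyocyte cells enter 4 of them. Probe sets of 1 gene are not independent either. Of the 7 in fibroTIPeR against fibroControl, the 4 lower ones were all of Gja1 and 3 were higher. Those 4 followed each other over the 15 cells that were not astrocytes (r = 0.881 to 0.984). The 4 higher ones of the 10 in fibroControl against cardiomyocyte were all of Gja1 too.

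**Figure D1:**
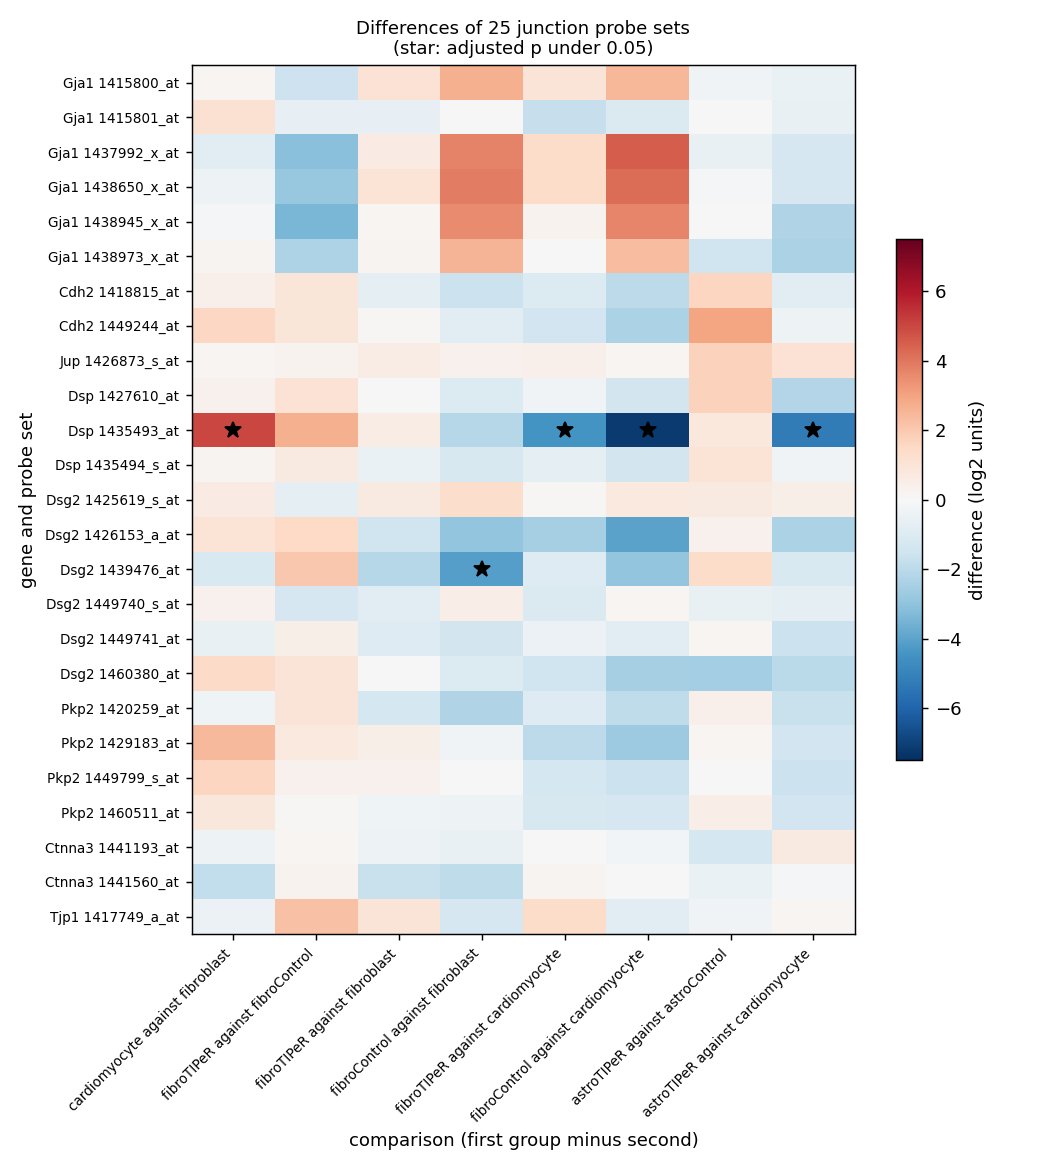
Difference in log2 level (colour) of each of the 25 junction probe sets (vertical axis) in 8 comparisons (horizontal axis, first group minus second); stars mark an adjusted p under 0.05 with limma. The 4 stars of Dsp 1435493_at lie in the comparisons with cardiomyocytes and the fifth star is Dsg2 1439476_at between fibroControl and fibroblast cells.

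Over the 25 probe sets, which count Gja1 and Dsg2 6 times each, the differences leaned downwards against cardiomyocytes. The genes did not all do so. As means per gene, Gja1, Jup, Ctnna3 and Tjp1 were above cardiomyocytes in fibroTIPeR cells (0.37, 0.40, 0.09 and 1.36). Cdh2, Dsp, Dsg2 and Pkp2 were below them (-1.24, -1.81, -1.07 and -1.36). The median over the 25 probe sets was -0.68 in fibroTIPeR, -1.10 in fibroControl and -1.26 in astroTIPeR cells relative to cardiomyocytes, beside -0.10, -0.08 and -0.03 over all probe sets. With the values as deposited the median of all probe sets in the astroTIPeR comparison was itself -1.0, so a shift there depends on the scaling. Relative to fibroControl, fibroTIPeR cells had a member median of 0.31 beside -0.0049 over all probe sets, and 17 of 25 differences were above 0. Between cardiomyocytes and fibroblasts the member median was 0.21 beside 0.08, and between astroTIPeR and astroControl it was 0.16 beside 0.03. Groups did not overlap for 3 of 25 probe sets between cardiomyocytes and fibroblasts (11.2% of all probe sets), for 2 between fibroTIPeR and fibroControl (3.15%), for 1 between fibroTIPeR and fibroblast (5.43%) and for 7 between fibroControl and fibroblast (22.8%). The counts were 2 between fibroTIPeR and cardiomyocyte (3.64%), 10 between fibroControl and cardiomyocyte (16.7%), 3 between astroTIPeR and cardiomyocyte (6.75%) and 0 between astroTIPeR and astroControl (11.3%). The counts between fibroControl and fibroblast and between cardiomyocytes and fibroblasts are thus near the background.

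Desmoplakin is the plakin that ties intermediate filaments to the desmosomal plaque. The 250 bases before its RefSeq start (GRCm38.p6, chr13:38151044-38151293, plus strand) are shown because Dsp carries the main difference, with the GC box GGGCGG, searched on both strands, in capitals.
Dsp: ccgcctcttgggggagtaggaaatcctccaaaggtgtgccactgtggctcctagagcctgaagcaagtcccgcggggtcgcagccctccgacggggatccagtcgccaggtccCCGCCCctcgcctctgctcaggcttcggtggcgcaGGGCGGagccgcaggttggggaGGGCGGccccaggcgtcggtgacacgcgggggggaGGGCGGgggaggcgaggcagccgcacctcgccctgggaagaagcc
The window held 4 such boxes and 72.4% G and C, and 32.7% of 32851 promoter windows of this length held at least 1. The TATA box TATAAA (in 12.4% of windows), the E-box CANNTG (66.2%), the MCAT motif CATTCC (12.6%), the GATA motif AGATAA (9.99%), the AP-1 motif TGANTCA (6.75%) and the CCAAT box (33.8%), searched likewise, had no match in it. A match or its absence describes these letters only.

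Probe set 1435493_at of Dsp read 9.20, 10.52, 11.04 and 11.22 in the 4 cardiomyocytes and 4.99, 5.95 and 5.49 in the 3 fibroblasts. The fibroTIPeR cells read 4.40, 4.12, 8.35, 6.56 and 6.62, and the fibroControl cells 3.07, 3.81 and 3.10. AstroTIPeR cells ran from 4.16 to 6.64 with a median of 5.0, and the astroControl cells read 4.69 and 4.22. All cardiomyocytes lay above every other cell, and fibroTIPeR cell 3 came nearest to them. In the order of group means, cardiomyocytes (10.50 ± 0.913, SD, n = 4) came first by more than the larger SD of the neighbours. FibroTIPeR (6.01 ± 1.76, n = 5), fibroblast (5.48 ± 0.482, n = 3), astroTIPeR (5.25 ± 0.923, n = 6) and astroControl (4.45 ± 0.332, n = 2) followed with gaps within it, and fibroControl (3.32 ± 0.417, n = 3) came last by more than it.

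Cardiomyocytes exceeded fibroblasts in this probe set by 5.02 (SE 0.86, 95% interval 3.24 to 6.79, adjusted p = 0.00805 with limma). FibroTIPeR cells lay below cardiomyocytes by a difference of -4.49 (SE 0.76, adjusted p = 0.00308), and fibroControl cells by one of -7.17 (SE 0.86, adjusted p = 3.86e-05). AstroTIPeR cells, whose arrays had the lower deposited medians, differed from cardiomyocytes by -5.24 (SE 0.73, adjusted p = 0.000126 with limma). This call held with each scaling of the arrays, with values from -5.88 to -4.74. The call against fibroblasts was lost without fibroblast 1 (4.77, adjusted p = 0.0556) or without fibroblast 3 (5.02, adjusted p = 0.0581). In fibroTIPeR cells the call against cardiomyocytes was lost with the 18S level as a covariate (-4.42, adjusted p = 0.131), where the SE was larger (0.97) and the difference nearly the same. It was also lost with cells 4 and 5 alone (-3.91, adjusted p = 0.111), and held with cells 1 to 3 alone (-4.87, adjusted p = 0.00163). With only the 2 groups of a comparison in the fit, the calls of cardiomyocytes against fibroblasts (adjusted p = 0.0513) and of fibroTIPeR against cardiomyocytes (0.0916) were lost.

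The transfer comparison is the one in which this probe set came nearest to a response. All 5 fibroTIPeR cells lay above all 3 fibroControl cells, by 2.69 on average (SE 0.83, 95% interval 0.99 to 4.38), which did not pass over all probe sets (adjusted p = 0.511 with limma). With the 2 cells of low 18S level alone the difference was 3.26 (SE 0.86, adjusted p = 0.0820), and with the 3 cells of high 18S level it was 2.30 (SE 0.93, adjusted p = 0.673). The same cells did not differ from untreated fibroblasts beyond their spread (0.53, SE 0.83, adjusted p = 0.876). The fibroControl cells lay below fibroblasts with no overlap, a difference that did not pass (-2.16, SE 0.92, adjusted p = 0.228). In astrocytes the difference between cells given cardiomyocyte RNA and mock-transfected cells was 0.80 (SE 0.92, adjusted p = 0.861).

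The other probe sets of Dsp did not show the step between cardiomyocytes and fibroblasts. Probe set 1427610_at read 8.07, 9.23, 9.07 and 8.96 in cardiomyocytes, 8.56, 8.50 and 8.52 in fibroblasts and 7.13, 9.44, 8.44, 9.11 and 8.69 in fibroTIPeR cells. These 3 groups overlapped, and cardiomyocytes differed from fibroblasts by 0.31 (95% interval -1.35 to 1.97, adjusted p = 0.939 with limma). FibroControl cells (7.77, 7.87 and 6.80) lay below fibroblasts, and the astrocyte groups lay lower, at 5.95 to 8.27 in astroTIPeR and 3.51 and 6.36 in astroControl cells. Probe set 1435494_s_at stayed between 2.72 and 6.40 in all cells. Over the 15 cells that were not astrocytes, 1435493_at correlated with 1427610_at at r = 0.561 (Spearman 0.539) and with 1435494_s_at at 0.296 (0.332). When Dsp was represented by its probe set of highest mean, 1427610_at, none of the 8 genes passed in any comparison. As the mean of its 3 probe sets, Dsp was lower in fibroTIPeR cells (-1.81, adjusted p = 0.0494), fibroControl cells (-3.30, adjusted p = 0.000801) and astroTIPeR cells (-2.57, adjusted p = 0.000839) than in cardiomyocytes. Between cardiomyocytes and fibroblasts this mean differed by 1.84, which did not pass (adjusted p = 0.170 with limma).

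**Figure D2:**
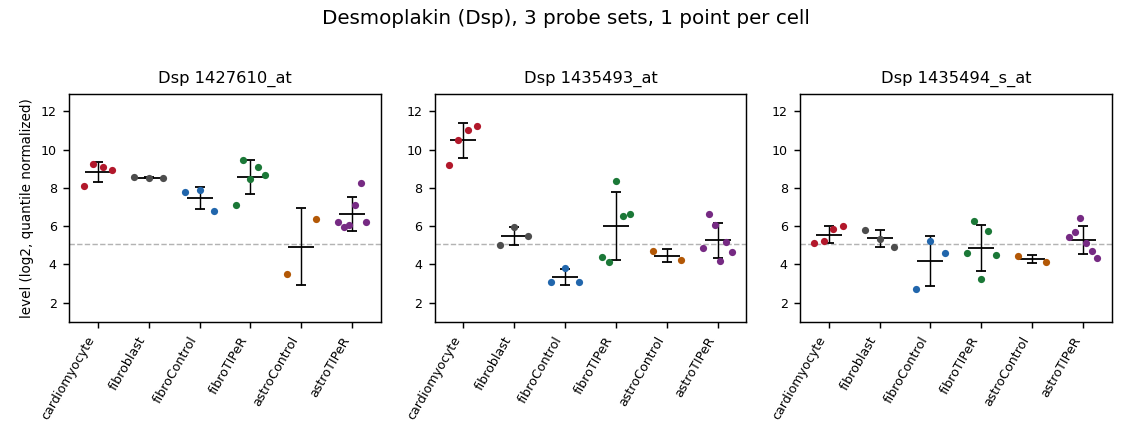
Level of each Dsp probe set (vertical axis, log2 after quantile normalization) in each cell by group (horizontal axis); points are cells, the short line and bar are mean ± SD, and the dashed line is the median of all values on the arrays. In 1435493_at the 4 cardiomyocytes lie at 9.20 to 11.22, above every other cell, while in 1427610_at they overlap fibroblasts and fibroTIPeR cells.

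Desmoglein 2 is a desmosomal cadherin of heart muscle. Its probe set 1439476_at read 7.60, 8.52 and 9.70 in fibroblasts and 3.82, 4.99 and 4.63 in fibroControl cells. FibroTIPeR cells read 5.21, 7.63, 5.13, 6.46 and 7.95, and cardiomyocytes 7.17, 7.93, 7.37 and 7.30. AstroTIPeR cells ran from 5.15 to 8.11 with a median of 5.89, and astroControl cells read 4.69 and 5.24. FibroControl cells lay below every fibroblast, cardiomyocyte and fibroTIPeR cell, and fibroTIPeR cells spread over the gap between fibroControl cells and fibroblasts.

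FibroControl cells fell below fibroblasts in Dsg2 1439476_at by a difference of -4.13 (SE 0.91, 95% interval -5.99 to -2.27, adjusted p = 0.0244 with limma). The groups also differed in 18S level without overlap, and with that level as a covariate the difference was -3.08 (adjusted p = 0.471). The call was lost without any 1 of fibroControl 1, 2 or 3 or fibroblast 2 or 3, with adjusted p up to 0.0937, and held without fibroblast 1 (0.0324); with only these 2 groups in the fit it was lost too (0.0706). The difference between fibroControl cells and cardiomyocytes was -2.96 (SE 0.85, adjusted p = 0.0573). FibroTIPeR cells lay above fibroControl cells without overlap, by 2.0 (SE 0.81, adjusted p = 0.679), and were lower than fibroblasts on average, with some overlap, by -2.13 (SE 0.81, adjusted p = 0.348).

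A further Dsg2 probe set, 1426153_a_at, was high in cardiomyocytes and low in fibroControl cells. It read 6.60, 8.77, 8.40 and 7.41 in cardiomyocytes, 8.40, 5.78 and 6.11 in fibroblasts and 3.54, 3.62 and 4.16 in fibroControl cells. FibroTIPeR cell 4 read 9.96 and the other fibroTIPeR cells 4.58, 2.95, 4.97 and 4.0, so 1 cell of the group lay above all cardiomyocytes and the rest below them. FibroControl cells differed from cardiomyocytes by -4.02 (SE 1.16, adjusted p = 0.0589). FibroTIPeR cells differed from cardiomyocytes by -2.50 (SE 1.02, adjusted p = 0.294), and without fibroTIPeR cell 4 by -3.67 (adjusted p = 0.0217).

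Probe set 1460380_at of Dsg2 read 9.64, 7.88, 9.36 and 7.2 in cardiomyocytes and 6.14, 5.40 and 6.64 in fibroControl cells. Its astroControl cells were far apart, at 6.50 and 11.58, and astroTIPeR cells ran from 3.30 to 8.6. The difference between astroTIPeR and astroControl was -2.55 (SE 1.18, adjusted p = 0.472), and it rested on astroControl 2, the cell at 11.58. Without that cell it was -0.01 (adjusted p near 1) and without astroControl 1 it was -5.09 (adjusted p = 0.0348); each fit assumes that the 1 control cell left varies like the other groups. Probe set 1449741_at ran from 6.42 to 6.94 in fibroblasts and from 4.78 to 5.71 in fibroControl cells (-1.40, SE 0.68, adjusted p = 0.293). Probe sets 1425619_s_at and 1449740_s_at had group means of 3.04 to 4.35 and 4.08 to 5.32 and no difference past the threshold. The 6 Dsg2 probe sets did not rank the cells alike: over the 15 cells that were not astrocytes their correlations ran from -0.558 to 0.644.

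**Figure D3:**
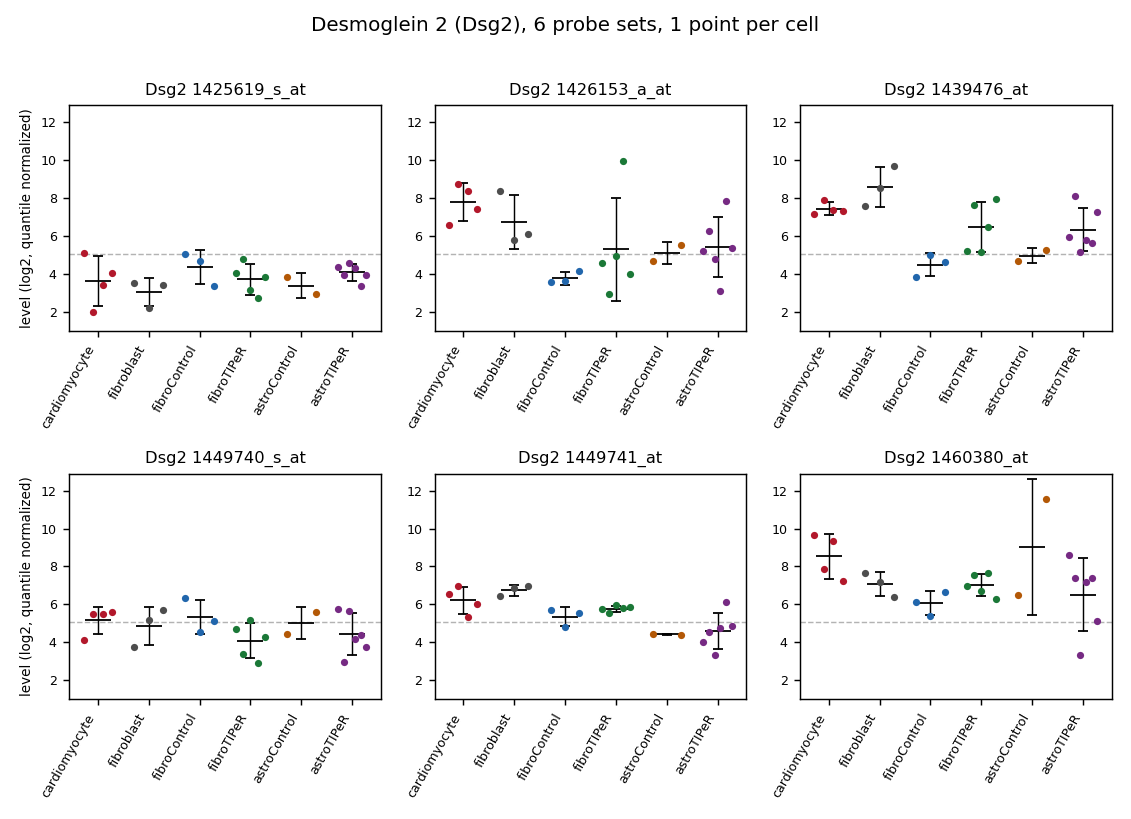
Level of each Dsg2 probe set (vertical axis, log2 after quantile normalization) in each cell by group (horizontal axis); points are cells, the short line and bar are mean ± SD, and the dashed line is the median of all values. In 1439476_at the 3 fibroControl cells (3.82 to 4.99) lie below the 3 fibroblasts (7.60 to 9.70).

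Plakophilin 2 links the desmosomal cadherins to desmoplakin, and its probe set 1429183_at read 6.54, 6.73, 6.54 and 6.01 in cardiomyocytes. Fibroblasts read 5.08, 3.51 and 3.51 and fibroControl cells 3.54, 4.52 and 3.20. FibroTIPeR cells 1 and 3 (6.49 and 5.82) lay near the cardiomyocytes and cells 2, 4 and 5 (2.57, 3.61 and 4.0) near the fibroblasts. Cardiomyocytes lay above all fibroblasts by 2.42 (SE 0.86, 95% interval 0.65 to 4.19), which did not pass (adjusted p = 0.374 with limma). FibroControl cells differed from cardiomyocytes by -2.70 (SE 0.86, adjusted p = 0.0888) and fibroTIPeR cells by -1.96 (SE 0.76, adjusted p = 0.270).

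Other Pkp2 probe sets ordered the cells differently. Probe set 1420259_at, the one of highest mean, read 8.62, 8.48 and 5.10 in fibroblasts and 7.88, 5.03, 7.37 and 8.04 in cardiomyocytes. Among fibroTIPeR cells it was high in cells 4 and 5 (8.83 and 7.27) and low in cells 1 to 3 (4.49 to 5.21), and in fibroControl cells it was 4.78 to 5.78. The low cells of both transfected groups were those with high 18S readings, while fibroblast 3 and cardiomyocyte 2 were low without them; the part of 18S in this pattern was not tested. Probe sets 1449799_s_at and 1460511_at had their highest group means in cardiomyocytes (5.27 ± 1.04 and 4.75 ± 0.388, SD, n = 4), with no comparison past the threshold.

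Plakoglobin, the catenin that serves both desmosomes and adherens junctions, did not separate the groups on its only probe set, 1426873_s_at. Cardiomyocytes read 8.89, 7.98, 9.20 and 8.45 and fibroblasts 9.13, 10.02 and 6.29. FibroTIPeR cells read 7.35, 9.46, 9.77, 8.34 and 10.24, and fibroControl cells 7.53, 10.25 and 8.54. AstroTIPeR cells ran from 8.95 to 10.23 with a median of 9.79, and astroControl cells read 6.50 and 9.52. All groups overlapped, cardiomyocytes and fibroblasts differed by 0.15, and no neighbours in the order of group means were separated by more than their SD. The probe set is of the shared kind (suffix s_at), whose probes match more than 1 transcript.

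N-cadherin, a transmembrane cadherin of the disc, varied more within groups than between them. Probe set 1449244_at read 7.38, 9.04, 10.42 and 6.23 in cardiomyocytes and 4.53, 5.15 and 10.44 in fibroblasts. FibroTIPeR cells read 10.81, 4.69, 8.26, 5.02 and 5.22, and fibroControl cells 5.77, 3.62 and 8.25. Each of the fibroblast, fibroTIPeR and fibroControl groups thus held cells both below 6 and above 8. In astrocytes, 5 of the 6 astroTIPeR cells (7.72 to 10.38) lay above both astroControl cells (4.16 and 5.74) and astroTIPeR cell 1 (3.26) lay below them. The astrocyte difference was 2.94 with an adjusted p of 0.615 in limma. The second Cdh2 probe set, 1418815_at, followed the first over the 15 other cells (r = 0.756, Spearman 0.732), with 1.62 as its astrocyte difference.

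Alpha-T-catenin, which joins the cadherin complex to actin and to plakophilin 2, showed no cardiomyocyte level above the others. Probe set 1441193_at read 4.09, 4.70, 4.82 and 5.20 in cardiomyocytes, 4.27, 5.39 and 5.56 in fibroblasts and 6.13 and 7.30 in astroControl cells. Probe set 1441560_at read 4.49, 6.94, 3.44 and 3.78 in cardiomyocytes and 5.92, 7.34 and 6.29 in fibroblasts, a difference of -1.86 (SE 0.90, adjusted p = 0.538 with limma). FibroTIPeR cells ran from 3.51 to 6.15 in the first and from 3.22 to 7.12 in the second, overlapping both. The 2 probe sets did not follow each other (r = 0.116, Spearman 0.221, over 15 cells). Whether these probe sets read transcript at all in these cells cannot be told from the deposited values, which carry no detection call.

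**Figure D4:**
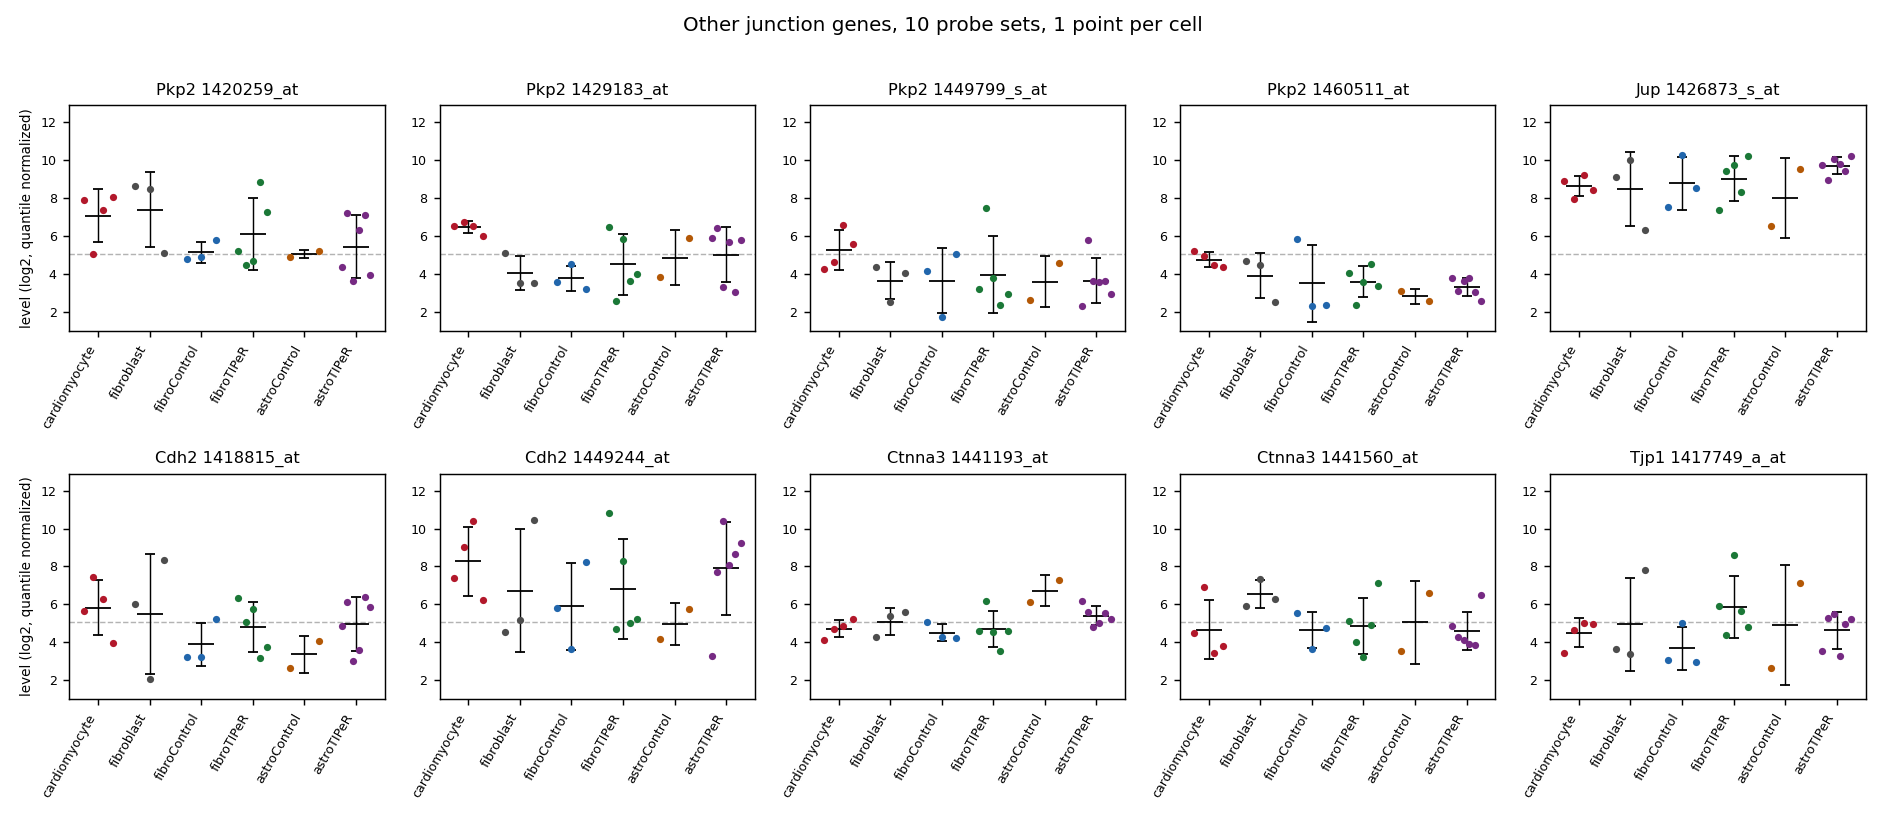
Level of the 10 probe sets of Pkp2, Jup, Cdh2, Ctnna3 and Tjp1 (vertical axis, log2 after quantile normalization) in each cell by group (horizontal axis); points are cells, the short line and bar are mean ± SD, and the dashed line is the median of all values. The cardiomyocytes are tight in Pkp2 1429183_at (6.01 to 6.73), whereas Cdh2 1449244_at spans 4.53 to 10.44 within fibroblasts alone.

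Connexin-43 forms the gap junction channels of ventricular muscle, and its 250 bases before the RefSeq start (GRCm38.p6, chr10:56377050-56377299, plus strand) are shown because its probe sets split the cells in different ways. Capitals mark the E-box CANNTG, the AP-1 motif TGANTCA and, on the minus strand, the GATA motif AGATAA.
Gja1: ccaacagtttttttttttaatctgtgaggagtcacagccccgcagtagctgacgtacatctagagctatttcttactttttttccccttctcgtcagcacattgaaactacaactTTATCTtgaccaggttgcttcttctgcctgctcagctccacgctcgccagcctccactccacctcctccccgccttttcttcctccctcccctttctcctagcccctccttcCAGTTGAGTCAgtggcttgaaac
The E-box CANNTG lay at -23 to -18 and the AP-1 motif TGANTCA at -19 to -13 from the start, sharing bases, and the GATA motif at -135 to -130. These motifs occur in 66.2%, 6.75% and 9.99% of promoter windows. Of the members, Gja1, Jup, Dsp, Ctnna3 and Tjp1 had an entry in the promoter table.

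Probe set 1415801_at of Gja1 varied little outside the fibroTIPeR group. Cardiomyocytes read 11.37, 11.94, 11.65 and 11.92, fibroblasts 10.16, 10.52 and 11.06 and fibroControl cells 10.22, 10.95 and 10.69. FibroTIPeR cells read 7.99, 10.80, 9.54, 10.38 and 11.21, so that cell 1 was the lowest of all 23. AstroTIPeR cells ran from 10.78 to 11.43 with a median of 11.22, and astroControl cells read 11.41 and 10.87. Every cardiomyocyte lay above every fibroblast, fibroControl and fibroTIPeR cell.

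The excess of cardiomyocytes over fibroblasts in 1415801_at was 1.14 (SE 0.50, 95% interval 0.11 to 2.18, adjusted p = 0.494 with limma). FibroTIPeR cells differed from cardiomyocytes by -1.74 (SE 0.44, adjusted p = 0.0700), near the threshold. That difference passed without fibroTIPeR 2, 4 or 5 (-1.94, -1.84 and -2.04, adjusted p = 0.0436, 0.0484 and 0.0138), and with cells 1 to 3 alone it was -2.28 (adjusted p = 0.00420). With cells 4 and 5 alone it was -0.93 (adjusted p = 0.986), and with the 18S level as a covariate -0.95 (adjusted p near 1). The lowest, cells 1 and 3, were among those with high 18S readings. FibroTIPeR and fibroControl cells differed in it by -0.64 (adjusted p = 0.882), and the astrocyte groups by 0.02.

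The 4 Gja1 probe sets with the suffix x_at, which marks probes that may cross-hybridize, gave another picture. Their mean in each cell was 10.73, 6.58, 6.98, 5.06 and 5.83 in fibroTIPeR, 8.46, 10.91 and 10.51 in fibroControl, 5.90, 3.52 and 10.24 in fibroblast and 5.62, 6.57, 6.15 and 6.78 in cardiomyocyte cells. AstroTIPeR cells ran from 2.81 to 6.50 and astroControl cells read 5.40 and 4.67. The high cells in this mean were all 3 fibroControl cells, fibroTIPeR cell 1 and fibroblast 3, and of these fibroTIPeR cell 1 was the lowest cell in 1415801_at. Over the 15 cells that were not astrocytes the 4 probe sets followed each other (r = 0.881 to 0.984), and each ran at r = -0.358 to -0.159 with 1415801_at. The remaining probe set, 1415800_at, went with the 4 (r = 0.630 to 0.807), at 4.95, 8.24 and 6.78 in fibroControl and 3.82, 3.74 and 4.51 in fibroblast cells.

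None of these differences passed with limma. Probe set 1437992_x_at was higher in fibroControl cells than in cardiomyocytes by 4.51 (SE 1.36, adjusted p = 0.0701), with no overlap, and by 1.59 (SE 1.72, adjusted p = 0.936) with the 18S level as a covariate. FibroTIPeR cells differed from fibroControl cells in 1438945_x_at by -3.41 (SE 1.22, adjusted p = 0.596). FibroControl cells exceeded fibroblasts in 1438650_x_at by 3.84 (SE 1.48, adjusted p = 0.176), a value that ranged from 2.29 to 5.87 when each cell was left out in turn. Over the same 15 cells, which share arrays and amplification, the mean of the 4 probe sets ran at r = 0.702 (Spearman 0.686) with control probes for the B2 repeat and at 0.617 (0.746) with 18S; the part of either in the pattern was not tested. Fibroblast 3, whose 18S level was 8.06, had a B2 level of 11.02, against 6.66 and 7.34 in the other fibroblasts.

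**Figure D5:**
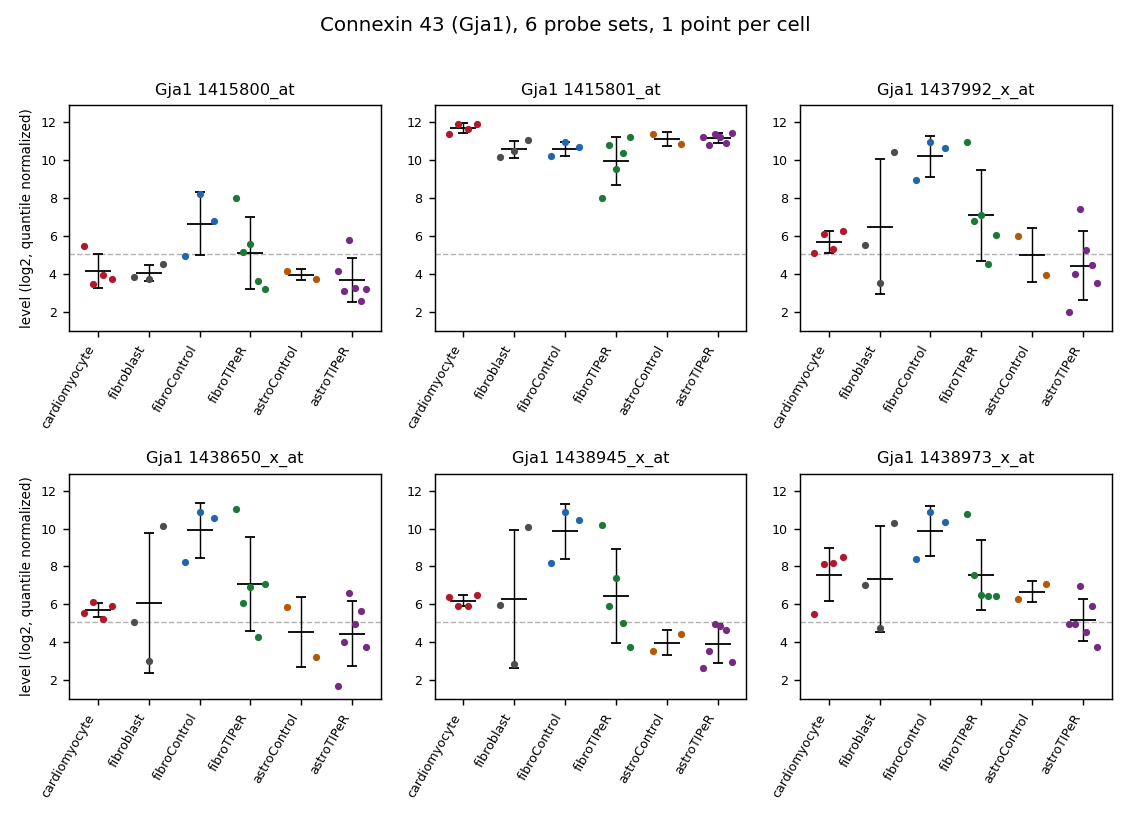
Level of each Gja1 probe set (vertical axis, log2 after quantile normalization) in each cell by group (horizontal axis); points are cells, the short line and bar are mean ± SD, and the dashed line is the median of all values. In 1415801_at all cells but fibroTIPeR 1 (7.99) lie at 9.54 or above, while in 3 of the 4 x_at panels the 3 fibroControl cells, 1 fibroblast and 1 fibroTIPeR cell stand above the rest. In 1438973_x_at the lowest fibroControl cell (8.40) lies below the highest cardiomyocyte (8.48).

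ZO-1, the scaffold that binds connexin-43 at the rim of the gap junction, read 3.40, 4.65, 4.99 and 4.97 in cardiomyocytes on its probe set 1417749_a_at. Fibroblasts read 3.61, 3.39 and 7.79 and fibroControl cells 3.07, 4.99 and 2.94. FibroTIPeR cells read 5.92, 4.37, 8.6, 5.63 and 4.81, astroTIPeR cells ran from 3.26 to 5.49, and astroControl cells read 2.64 and 7.13. FibroTIPeR cells were above fibroControl cells by 2.20 on average (SE 0.996, adjusted p = 0.741 with limma), with overlap, and no neighbours in the order of the 6 group means were separated by more than their SD. Fibroblast 3 and fibroTIPeR 3 stood above the other cells of their groups.

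The effect of cardiomyocyte RNA in fibroblasts (against fibroControl) was set against that in astrocytes (against astroControl), controls that differ in kind. No junction probe set differed in this test (0 of 25, smallest adjusted p = 0.572 with limma; 0 of all probe sets), and 1 of 25 had an unadjusted p under 0.05 against 7.99% of all. That one was Dsg2 1460380_at, with a difference of 3.51 (SE 1.58, 95% interval 0.27 to 6.75, adjusted p = 0.572). It was 0.97 without astroControl 2 and 6.05 without astroControl 1 (adjusted p = 0.977 and 0.0605), so its size rested on 1 control cell.

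Genes of these and related structures, listed by function, were counted by their probe set of highest mean. The lists also hold Z-disc, tight junction and cornified-type genes. Of 20 other intercalated disc genes measured, 0 rose and 1 fell in fibroTIPeR against cardiomyocyte cells: Csrp3, a Z-disc protein of muscle, by -2.97 (SE 0.60, adjusted p = 0.0154 with limma; background for genes 0.610%). In fibroControl cells against cardiomyocytes 1 rose and 2 fell (2.91%): the actin cross-linker Flnc by 2.92, Csrp3 by -2.83 and Tmem65, a disc membrane protein, by -3.31, although its other probe set had the opposite sign. Csrp3 was also lower in astroTIPeR cells (-3.29, adjusted p = 0.00161; 1.96%). Tmem65 was lower in fibroControl cells than in fibroblasts (-3.43, adjusted p = 0.0468; 1.38%) and averaged 10.00 ± 0.436 (SD, n = 5) in fibroTIPeR cells, 3.50 above fibroControl (adjusted p = 0.166). Between cardiomyocytes and fibroblasts 0 of the 20 passed (0.176%), with Csrp3 nearest (3.12, adjusted p = 0.0605).

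Of 14 other gap junction proteins 1 fell between fibroControl cells and fibroblasts, Gjb5 (-2.45, SE 0.56, adjusted p = 0.0321 with limma; 1.38% of genes), and none passed elsewhere. Of 13 other desmosome and cornified-type genes only corneodesmosin, Cdsn, passed. It was 7.83 ± 0.669 (SD, n = 3) in fibroControl cells and 3.83 ± 0.869 (n = 5) in fibroTIPeR cells (-4.00, adjusted p = 0.0243), the only probe set of all 45037 past the threshold in that comparison (0.00222%). This call was lost in 6 of 12 alternatives. These were median centring (-3.79, adjusted p = 0.0626 with limma), quantile normalization within array sets and eBayes without trend. The others were the replicate block, only the compared groups and fibroTIPeR cells 1 to 3 alone, and the highest adjusted p was 0.995. The call was also lost without any 1 of fibroTIPeR 1 or 5 or fibroControl 2 or 3 (adjusted p up to 0.0977). Cdsn was also higher in fibroControl cells than in fibroblasts (3.08, adjusted p = 0.0269) and cardiomyocytes (3.07, adjusted p = 0.0110). Of 19 other cadherins and catenins, Ctnnd1 (p120 catenin) was lower in fibroControl cells than in cardiomyocytes (-3.72, adjusted p = 0.0302; 2.91%), and 1 of its 2 other probe sets had that sign. Of 21 other tight junction and scaffold genes, Mpp5 was lower there (-5.19, adjusted p = 0.00848; 2.91%), and neither of its other probe sets had that sign. The other probe sets of these listed genes were looked at after the values were seen. For Ldb3, Dsc2, Ank2 and Cdh11 the probe set of highest mean did not pass in the comparisons that follow. The signs of their remaining probe sets are not given here. The Z-disc protein Ldb3 (1416752_at) was higher in cardiomyocytes than in fibroblasts (3.89, adjusted p = 0.00280, 0.127% of probe sets). Relative to cardiomyocytes it was lower in fibroTIPeR (-3.81, 0.560%), fibroControl (-2.99, 2.48%) and astroTIPeR cells (-4.57, 1.87%). Also relative to cardiomyocytes, the desmosomal cadherin Dsc2 (1426911_at) was lower in astroTIPeR cells (-2.14, adjusted p = 0.0273). Ank2 (1440043_at) was lower in astroTIPeR (-3.18) and fibroControl cells (-3.62), and Cdh11 (1450757_at) was higher in fibroControl cells (4.32, adjusted p = 0.0355).

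Over all 87 of these genes, fibroTIPeR against fibroControl gave 1 call (0.00550% of genes), with 12 at an unadjusted p under 0.05 against 6.40% of all probe sets. FibroTIPeR against fibroblast (0.0110%) and astroTIPeR against astroControl (0.104%) gave 0 with limma, with 11 and 7 at an unadjusted p under 0.05, against 10.5% and 9.81% of all probe sets. FibroControl gave 3 calls against fibroblasts (1.38%) and 6 against cardiomyocytes (2.91%), with 20 (16.7%) and 17 (17.3%) unadjusted. FibroTIPeR (0.610%) and astroTIPeR (1.96%) against cardiomyocytes gave 1 call each, with 12 unadjusted each (13.0% and 16.1%). Cardiomyocyte against fibroblast gave 0 (0.176%), with 11 unadjusted (9.23%). The unadjusted counts are of genes, while their shares are of probe sets. Of the calls named for these genes, Csrp3 in astroTIPeR against cardiomyocyte cells held in the 10 alternatives that held its probe set and with each cell left out, and Ldb3 in cardiomyocytes against fibroblasts was lost in 1 of 9, with the compared groups alone (adjusted p = 0.181). Mpp5 was lost with the 18S covariate (adjusted p = 0.768) or without fibroControl 2, and Cdsn against cardiomyocytes with that covariate (0.678) or without fibroControl 3. In fibroTIPeR cells the Csrp3 call was lost with the 18S covariate (adjusted p = 0.404 with limma), with only the compared groups and with fibroTIPeR cells 4 and 5 alone. It was also lost without fibroTIPeR 3, cardiomyocyte 3 or cardiomyocyte 4. The fibroControl calls of Tmem65, Flnc, Csrp3, Gjb5, Ctnnd1 and Cdsn (against fibroblasts) were lost with the 18S covariate and without any 1 of 4 to 6 of the cells compared. Each of these was lost in further alternatives too. The Dsc2 call was lost with the 18S covariate, with the replicate block and without any 1 of 5 cells. The Ank2 and Cdh11 calls were lost with the 18S covariate, with the replicate block and without any 1 of 5 to 7 of the cells compared. Ldb3 in fibroControl cells was lost with that covariate, with only the compared groups or without fibroControl 2. In fibroTIPeR cells the Ldb3 call was lost with only the compared groups (adjusted p = 0.081 with limma).

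Candidates for likeness were 12121 genes, each by its probe set of highest mean where that mean lay above the median of all probe sets. The genes most like each member were taken among them, over the 15 fibroblast-type and cardiomyocyte cells. The measure was the Pearson correlation with the member's probe set of highest mean. Points share arrays and amplification, and the largest of 12121 correlations over 15 cells is large in any case. They were 4930442L01Rik and Rab3il1 for Gja1 (both 0.927), Hk2 (0.898) and Ndufaf4 (0.868) for Cdh2, Vcp (0.833) and Ddx25 (0.826) for Jup, and Qsox1 (0.876) and Sphk1 (0.865) for Dsp. For Dsg2 they were Gm5600 (0.921) and Slc25a27 (0.860), for Pkp2 Sdr9c7 (0.931) and Ago3 (0.928), for Ctnna3 Ncoa6 (0.810) and Zfpm2 (0.792), and for Tjp1 Fam160b2 (0.832) and Cdc42bpg (0.830). No member was among the 2 genes most like another member, but a member below that median level could not have been named.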

How the data were processed

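RNA of each cell was amplified and hybridized to an Affymetrix array, per the labels' protocols. The deposited table holds log2 values for each probe set, judged from their range; the authors' summarization and normalization: not given in the sources used here. Columns were quantile normalized, since medians differed between the astrocyte arrays and the others, so levels across these 2 sets depend on that step. The 64 control probe sets were left out, no filter on low values was set, and 932 probe sets with several symbols and 9160 with none in the platform annotation were tested but not named. Groups came from the titles.

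Tests used limma 3.58.1 in R 4.3.3 (statmod 1.5.0): 6 group means over all 23 cells, eBayes with trend, two-sided, Benjamini-Hochberg over 45037 probe sets, threshold 0.05, 95% intervals. The number of arrays limits precision. The pipeline was tested on simulated data. Figures used matplotlib 3.10.9.

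The members and lists were chosen with earlier results of these data known. The naming rule was every probe set of each member, up to 3 genes per companion list and comparison past the threshold (otherwise up to 2 of smallest p), and the 2 most similar genes. Of 155 listed genes 141 were measured. Promoter sequences are RefSeq's (GRCm38.p6). Alternatives were deposited values without further scaling, median centring, quantile normalization within array sets, a filter at the median level, 1 probe set or the mean per gene, eBayes without trend or robust, arrayWeights, a replicate block, 18S as a covariate, only the compared groups, fibroTIPeR cells 1 to 3 or 4 and 5 alone, and each cell left out. The titles do not say whether equal replicate numbers pair cells, and no pairing was used in the main fit. Deviations of same-numbered cells from their group means correlated at -0.305 to 0.239, which cannot decide it.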

Additional observations from a re-analysis of the deposited data

Results flagged for a closer look

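In 6 of 75 tested groups of 4 to 6 cells, 1 cell stood far from the others of its group for a junction probe set, where chance gives about 1 in 20. Gja1 1438973_x_at was 10.74 in fibroTIPeR cell 1, with the next cell at 7.53, and 5.46 in cardiomyocyte 1, with the next at 8.13. Cdh2 1449244_at was 3.26 in astroTIPeR cell 1, with the next at 7.72. Dsg2 1426153_a_at was 9.96 in fibroTIPeR cell 4, with the next at 4.97, and Dsg2 1449740_s_at was 4.09 in cardiomyocyte 1, with the next at 5.46. Pkp2 1449799_s_at was 7.48 in fibroTIPeR cell 2, with the next at 3.76.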

How the results depend on the processing

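No called difference changed sign in any alternative. Dsp 1435493_at kept its call against cardiomyocytes in fibroControl cells (-7.60 to -6.60) and in astroTIPeR cells (-5.88 to -4.74) in the 10 alternatives that held this probe set and with each cell left out. Counts of the 8 genes past the threshold, 1 in each comparison below except astroTIPeR against astroControl (0), moved as follows. With 1 probe set per gene each count was 0. With the mean per gene they were 0 for cardiomyocyte against fibroblast and fibroControl against fibroblast, 3 for fibroControl against cardiomyocyte and 2 for astroTIPeR against cardiomyocyte. With arrayWeights they were, in that order, 4, 2, 3 and 2, and 2 for fibroTIPeR against cardiomyocyte. With only the compared groups they were 0, 0, 4 and 2, and 0 for fibroTIPeR against cardiomyocyte. With 18S as a covariate fibroControl against fibroblast and fibroTIPeR against cardiomyocyte gave 0. For fibroControl against cardiomyocyte the filter gave 3 and eBayes without trend or robust 2 each. For astroTIPeR against cardiomyocyte the deposited values and normalization within array sets gave 4 each, where the median of all probe sets was -1.0 and -0.89 (0.14 with median centring) against -0.03, and the share of higher calls went from 60.8% to 6.10%, 7.18% and 78.9%. FibroTIPeR against cardiomyocyte gave 3 with cells 1 to 3 and 0 with cells 4 and 5. Leaving out each cell gave 0 to 1 for cardiomyocyte against fibroblast, 0 to 1 for fibroControl against fibroblast, 1 to 3 for fibroTIPeR against cardiomyocyte and 0 to 1 for astroTIPeR against astroControl. The cause was not tested, except that fewer cells entered the fits that left some out. The replicate block, whose numbers are not known to pair the cells, changed no count. With it Dsp 1435493_at differed by 5.0 (adjusted p = 0.0222 with limma) between cardiomyocytes and fibroblasts. Dsg2 1439476_at differed by -4.13 (adjusted p = 0.0352) between fibroControl and fibroblast cells. Levels near the array median may be background, which the deposited values do not show.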

Other observations

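The probe sets that carried the 2 kinds of calls had other nearest patterns than those of highest mean, looked at after their values were seen. Over the same 15 cells Dsp 1435493_at ran with Kif16b (0.915), Cpeb3 (0.889) and Mb, the muscle oxygen carrier myoglobin (0.875), and Dsg2 1439476_at with Zbtb20 (0.944), Zswim2 (0.922) and Pdk4, an inhibitor of glucose oxidation (0.921). These are descriptions of 15 cells, without a test.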
